A study of Trichechus manatus latirostris with 11 samples.

Results

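CD83, CD69 and 8 further surface molecules through which white blood cells activate or restrain each other were examined in RNA of the buffy coat, the layer of white blood cells above the red cells in spun blood, of Florida manatees (Trichechus manatus latirostris). Members were the rows of the deposited table whose RefSeq symbol in the TriManLat1.0 assembly was CD83, CD69, CD40, CD80, CD86, CD274, ICOS, CTLA4, ICAM1 or TNFSF9. Of these 10 genes 6 had a row, among 15298 rows in all, and CD80, CD86, ICOS and ICAM1 had no matching row and were not analysed here. The genes were selected on the ratio of the group means of this same table, whose values were already known, so the values below describe that ratio and no test of it is given. No sequences are shown, because none were at hand for these records.

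RNA sequencing had been performed on 4 adult manatees treated for red tide illness, which follows exposure to the neurotoxins of the dinoflagellate Karenia brevis, and on 7 adult controls. The red tide animals were sampled at Lowry Park Zoo in Tampa, some on arrival and others after a week of treatment. Among the controls 1 animal was at the same zoo, recovering from pneumonia, while 4 came from Crystal River and 2 from the Indian River Lagoon in Brevard County. Sampling dates, and but for 1 control the places, differed between the groups along with red tide illness. The labels give storage in RNAlater for every sample, and for the red tide buffy coats the study's methods also describe immediate freezing. Illness, treatment, place, date and storage cannot be told apart. The table holds mean normalized counts, that is reads divided by the size factor of each library, for 4 libraries and for 7 libraries. In every row the mean over all 11 libraries equalled 4 parts of the first mean and 7 parts of the second, to within a relative deviation of 3.3e-09. The first mean is therefore taken to be the red tide mean and the second the control mean, an assignment that rests on these sizes and on the order of names in the table's title, since the columns carry no group names. The study's text, however, describes genes with the higher mean over the 7 libraries, among them MMP9, CXCR1 and CXCR2, as upregulated in red tide, which is the opposite assignment. The direction of red tide against control is therefore uncertain for every ratio given here, and each mean is called by how many libraries it averages. Libraries could not be linked to animals.

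T cells are activated when their antigen receptor is engaged together with a second, costimulatory signal, and the molecules that carry this signal fall into a few families. The B7 proteins CD80 and CD86 on antigen-presenting cells bind CD28, which activates the T cell, or CTLA4, which restrains it, while CD274 binds the inhibitory receptor PDCD1. Members of the tumor necrosis factor family such as TNFSF9 and TNFSF4 act through the receptors TNFRSF9 and TNFRSF4, and CD40 on B cells and dendritic cells receives the signal of CD40LG on T cells. CD83 marks mature dendritic cells and activated lymphocytes and keeps CD86 and MHC class II at the cell surface, and CD69 appears early on activated lymphocytes, where it binds and internalizes the egress receptor S1PR1.

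CD83 and CD69 were the members furthest apart between the groups. CD83 (XM_004382976.1) averaged 3554 normalized counts in the 4 libraries against 105 in the 7 libraries, so that the first mean was 34.0-fold higher. CD69 (XM_004387295.1) had means of 3709 and 275, a 13.5-fold difference in the same direction. Among all rows CD83 ranked 253rd by this ratio and CD69 ranked 635th. Every row with a larger ratio than CD83 had a lower overall mean: of the 795 rows with an overall mean at least as high as that of CD83, none had a larger ratio. Of the 689 rows with an overall mean at least as high as that of CD69, 4 had a larger ratio. The level of both genes comes mostly from the 4 libraries, and both were picked on this ratio. These ranks therefore describe the choice of genes and lend it no support. The median log2 ratio of all rows was 0.14, and relative to that median CD83 lay 4.95 higher and CD69 3.62 higher on the log2 scale.

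The spread of CD83 and CD69 over single libraries is not known, because a mean this high can be made up of reads in many ways. The means nevertheless set limits. Normalized counts cannot be negative, so no library of the 7 could hold more than 732 normalized counts of CD83 or 1922 of CD69, which is 7 times the group mean. At least 1 of the 4 libraries held 3554 or more of CD83 and at least 1 held 3709 or more of CD69, above any value that a library of the 7 could have. How many of the 4 libraries did so cannot be told from the means. The 4-library mean exceeded 7 times the 7-library mean in 7.59% of all rows.

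**Figure D1:**
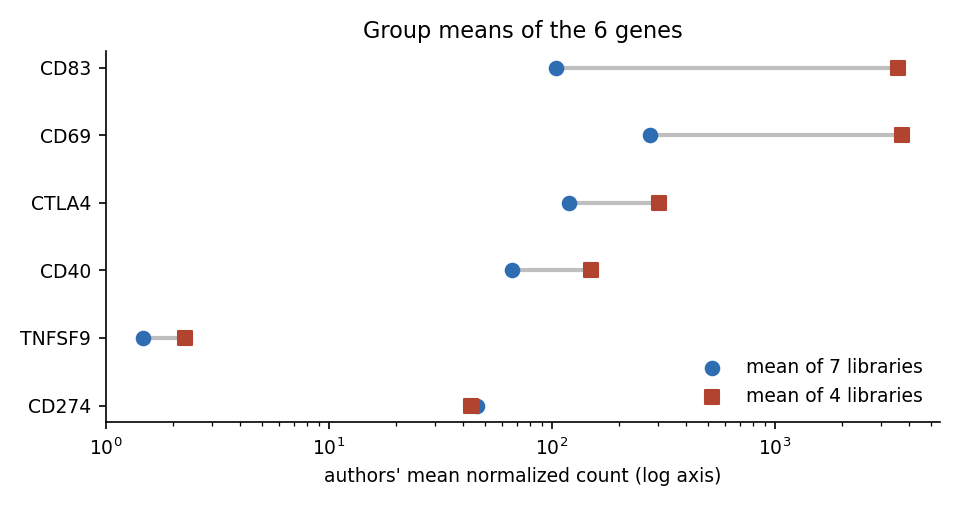
Authors' mean normalized count of each of the 6 genes over 4 libraries (red squares) and over 7 libraries (blue circles), on a log axis, with a grey line joining the means of a gene. CD83 spans 105 to 3554 and CD69 spans 275 to 3709, while the symbols of CD274 nearly coincide.

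CTLA4 and CD40 were higher in the 4-library mean by just over 2-fold. CTLA4 (XM_004378252.1) had means of 302 over the 4 libraries and 119 over the 7 libraries, a 2.53-fold difference. CD40 (XM_004370285.1) had means of 149 and 66.3, a 2.25-fold difference. For neither gene do the means alone show that any library of the 4 exceeded all of the 7, since a single library of the 7 could hold up to 836 normalized counts of CTLA4 or 464 of CD40. Relative to the median of all rows the log2 ratios were 1.20 for CTLA4 and 1.03 for CD40, which left CD40 close to the 2-fold line.

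In CD274, the ligand of PDCD1, the means lay close together. CD274 (XM_004373479.1) averaged 43.5 ± 20.1 (SD, n = 4) in the 4 libraries against 46.1 in the 7 libraries, a log2 ratio of -0.08. Its reads in the 4 libraries could be recovered and came to 36, 38, 44 and 16 in order of falling size factor, which corresponds to 23.1, 37.0, 70.9 and 43.0 normalized counts. The mean of the 7 libraries thus lay inside the range of the 4. Without the library of size factor 0.620, which held the highest value, the log2 ratio was -0.42, and with the library of size factor 1.56 left out it was 0.13, so the sign of the ratio rested on single libraries.

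TNFSF9, the ligand of TNFRSF9, was barely measured in either group. TNFSF9 (XM_004378620.1) had 11 reads over the 4 libraries and 12 over the 7 libraries. In normalized counts the 4 libraries held 4.49, 2.92, 1.61 and 0 in order of falling size factor, a mean of 2.26 ± 1.91 (SD, n = 4). Of the 7 libraries 5 held 0, and the others held 6.71 and 3.62, a mean of 1.48 ± 2.67 (SD, n = 7). The groups overlapped, and the highest single value was in the group of 7. A library with 0 reads may still hold up to 3, which is 1.73 to 4.27 normalized counts in the 7 libraries depending on their size factor. A difference in TNFSF9 was therefore not detectable with so few reads. The log2 ratio of 0.61 moved to 1.90 without the 1 library of the 7 that held 8 reads. It moved to 0.03 without the library of size factor 1.56 in the group of 4.

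In all, 4 of the 6 genes with a row were at least 2-fold higher in the 4-library mean and none was at least 2-fold lower, with a median log2 ratio of 1.26. Of all rows 23.9% were at least 2-fold higher in the 4-library mean and 10.4% at least 2-fold lower. Since the genes were picked with these ratios known, the count describes the choice as much as the data. The plot of ratio against level shows how the wide fan of ratios among weakly expressed rows narrows towards the levels of CD83 and CD69.

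**Figure D2:**
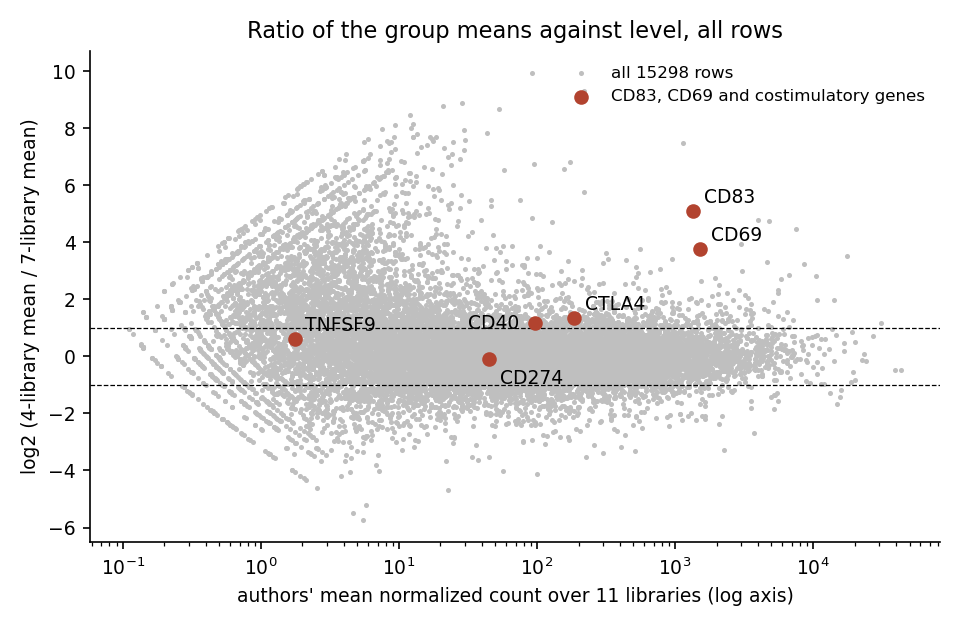
Log2 ratio of the means, 4 libraries over 7 (vertical axis), against the mean normalized count over 11 libraries (horizontal log axis) for all 15298 rows in grey, with the 6 genes in red and dashed lines at 2-fold. CD83 at 5.09 and CD69 at 3.76 stand above most rows of their level, CTLA4 and CD40 lie near the upper 2-fold line, and TNFSF9 and CD274 lie between the lines.

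The receptors and ligands that pair with these genes did not follow them uniformly. Across 8 lists of family members, adhesion partners and signalling genes, 59 rows of 55 genes were found, of which 12 rows (20.3%) were at least 2-fold higher in the 4-library mean and 13 rows (22.0%) at least 2-fold lower. The share higher was thus near that of all rows and the share lower was above it, and the median log2 ratio was 0.04. CD40 and its ligand lay on opposite sides. CD40LG, which activated T cells display, had means of 99.4 over the 4 libraries and 216 over the 7 libraries, 2.18-fold lower in the 4-library mean, while CD40 itself was 2.25-fold higher. Reads of single libraries were recovered for neither gene, so how far this contrast rests on single libraries is unknown.

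Among the relatives of CD28, only 3 of 9 listed genes had a row. CD28, the activating receptor that shares its ligands with CTLA4, had means of 219 over the 4 libraries and 185 over the 7 libraries. Its log2 ratio of 0.24 was lower by 1.10 than that of CTLA4. PDCD1, the inhibitory receptor for CD274, had means of 24.1 and 8.44, a 2.85-fold higher 4-library mean. The 4 libraries held 16.0, 34.1, 35.5 and 10.8 normalized counts of PDCD1 in order of falling size factor, each above the 7-library mean, although the values of the 7 libraries are not known. With any 1 of these 4 libraries removed, the log2 ratio of PDCD1 was between 1.27 and 1.76. The B7 relative VTCN1 was barely measured, with means of 2.27 and 1.82 and overlapping groups, and its log2 ratio of 0.32 was -0.76 without the library of size factor 1.03.

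The costimulatory ligands and receptors of the tumor necrosis factor family lay on both sides. Of 9 rows, 4 were at least 2-fold higher in the 4-library mean (TNFSF4, TNFRSF9, TNFSF15 and TNFRSF4), 3 were at least 2-fold lower (TNFSF13B, CD40LG and TNFSF14), and CD27 and TNFRSF13B lay between. With an overall mean of at least 10 required, 0 of the 4 higher rows and 2 of the 3 lower rows remained. TNFRSF9, an activation-induced receptor on T cells, held 12.8, 18.5, 19.3 and 24.2 normalized counts in the 4 libraries in order of falling size factor, a mean of 18.7 ± 4.67 (SD, n = 4). In the 7 libraries TNFRSF9 ranged from 0 to 9.39 with a median of 2.31, a mean of 3.02 ± 3.02 (SD, n = 7). The groups did not overlap, all 4 libraries being the higher, and the 4-library mean was 6.19-fold higher, a log2 ratio of 2.63 that was 3.25 without the library of 9.39 normalized counts. Its ligand TNFSF9 showed no such separation.

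TNFSF4, the ligand of TNFRSF4 on antigen-presenting cells, was also separated. TNFSF4 held 8.98, 10.7, 33.8 and 5.38 normalized counts in the 4 libraries in order of falling size factor. Among the 7 libraries only the library of size factor 1.11 with 4 reads, or 3.61 normalized counts, held any, and the other 6 held 0. The means were 14.7 ± 12.9 (SD, n = 4) and 0.516 ± 1.37 (SD, n = 7), and the lowest of the 4 libraries exceeded the highest of the 7. In the group of 7, a count of 0 allows up to 3 reads, or at most 4.27 normalized counts, which is below the lowest of the 4 libraries. That lowest value, 5.38, itself rests on 2 reads in the library of size factor 0.372. Counting error in those 2 reads was not covered, so the separation is not secure against it. The fold of 28.5 rests on the 4 reads of a single library, and its log2 value of 4.83 ranged from 4.02 to 5.11 with 1 library of the 4 left out. Such separation, all 4 libraries above all 7, was found in 2.80% of the 4436 rows with recovered reads in every library, a set that holds weakly expressed rows and reaches higher in the 4-library mean than in the 7-library mean.

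The receptor TNFRSF4 had 3 reads in the 4 libraries, all in the library of smallest size factor, and 8 reads spread over 4 of the 7 libraries. Its 2.25-fold ratio had a 95% Poisson interval of 0.465 to 6.58 from those 3 reads, counting error only, and nothing can be said of its direction. TNFSF15 was 5.47-fold higher in the 4-library mean, but 29.6 normalized counts in the library of size factor 0.372 set its 4-library mean of 10.1, the others held 1.95 to 4.84, and its log2 ratio of 2.45 was 0.95 with that library left out and 3.34 without the library of size factor 1.73 in the group of 7. TNFSF13B, a survival factor for B cells, was 2.84-fold lower in the 4-library mean, at 7.07 against 20.1. TNFSF14 was 2.13-fold lower, at 3.63 against 7.73, a log2 ratio of -1.09. That ratio lay inside 2-fold without any of 3 of the 4 libraries. It was -0.88 without the library of size factor 1.56, -0.68 without that of 0.372 and -2.26 without that of 0.620. Of the 12 partner rows that were 2-fold higher, 3 (FERMT3, TRAF6 and GRAP2 XM_004373880.1) had no recovered reads, so their dependence on single libraries is unknown. Of the other 9, TNFSF15, TNFRSF4, PRKCQ and SOCS1 were not 2-fold higher without the library of size factor 0.372. Among the partner rows that were 2-fold lower, CD40LG, CD2 and ITGA4 likewise had no recovered reads.

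**Figure D3:**
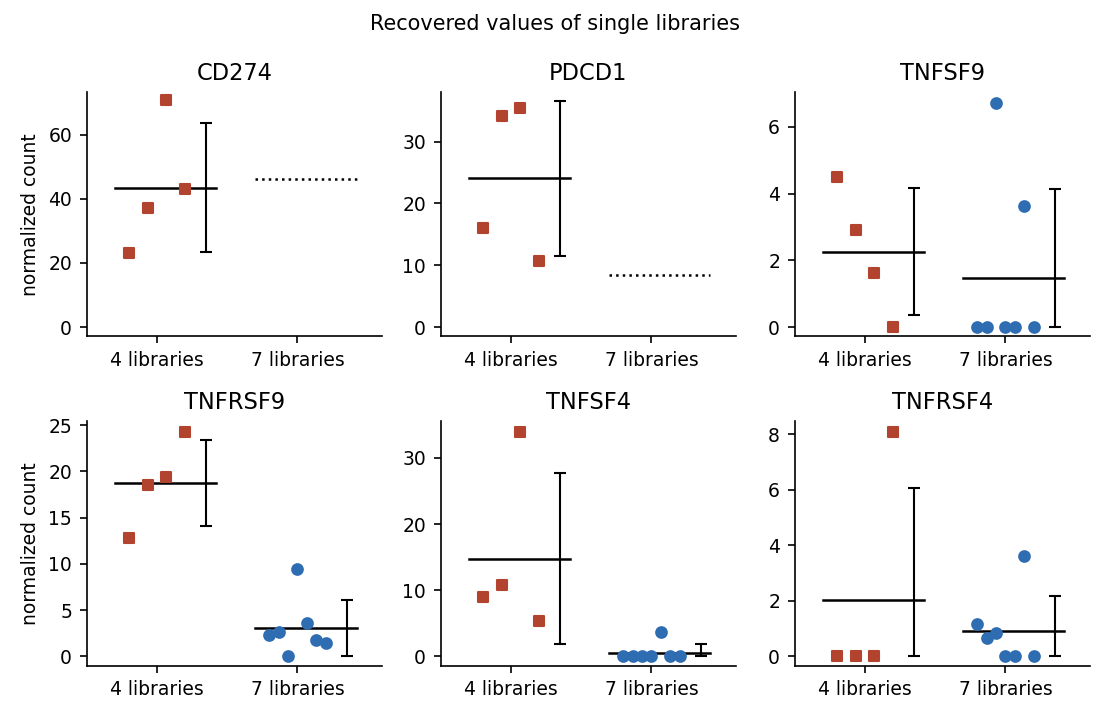
Normalized counts of single libraries, recovered from the group means, for 2 of the genes (CD274 and TNFSF9) and 4 partners, with each group mean as a horizontal line and the SD as a bar whose lower end stops at 0. TNFRSF9 and TNFSF4 show all 4 libraries (red) above all 7 (blue), TNFSF9 and TNFRSF4 overlap, and for CD274 and PDCD1 a dotted line gives the mean of the 7 libraries, whose single values are not known.

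The binding partners in adhesion and in tissue retention lay mostly between the 2-fold lines. ITGAL and ITGB2 form the integrin LFA-1, the receptor for ICAM proteins on leukocytes. ITGAL had means of 1486 over the 4 libraries and 2384 over the 7 libraries, a log2 ratio of -0.68, and ITGB2 had means of 3572 and 3481, a log2 ratio of 0.04. ICAM3 had means of 1204 and 1578 and ICAM2 of 61.4 and 66.6. Outside the 2-fold lines were ITGA4, the subunit of the integrin VLA-4, at 2682 against 6826 or 2.55-fold lower, FERMT3, which activates leukocyte integrins, at 1619 against 803 or 2.02-fold higher, and ICAM5, whose means of 3.63 and 0.424 rested on 12 and 5 reads and whose log2 ratio of 3.10 was 1.93 without the library of size factor 0.620 and 5.06 without that of 1.73. S1PR1, the partner of CD69, had means of 1742 and 2134, a log2 ratio of -0.29 against 3.76 for CD69.

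Among 4 rows of other checkpoint receptors and their ligands, none was 2-fold higher in the 4-library mean. CD2, an adhesion and costimulatory receptor of T and NK cells, had means of 123 over the 4 libraries and 285 over the 7 libraries, 2.33-fold lower in the 4-library mean. SLAMF1 was 2.14-fold lower, at 20.3 against 43.3, and left the 2-fold range when any of 3 of the 4 libraries was left out, with log2 ratios of -0.97 to -0.74, and was at -1.99 without the fourth. The inhibitory receptors TIGIT and LAG3 had log2 ratios of -0.66 and 0.07, the latter -1.40 without the library of size factor 0.620.

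Downstream of CD40, 9 rows of signalling genes had a median log2 ratio of -0.09. TRAF6, an adaptor that CD40 recruits, was 2.12-fold higher in the 4-library mean, at 673 against 317. MAP3K14, the kinase that starts the alternative NF-kB pathway, was 2.62-fold lower, at 67.9 against 178, and IKBKB was 9.69-fold lower, at 1.61 against 15.6. All 8 reads of IKBKB in the 4 libraries came from 2 of them, and without the library of size factor 1.03 its log2 ratio was -4.19 in place of -3.28. NFKB2, the subunit processed in that pathway, had means of 553 and 334, a log2 ratio of 0.73. For CD28 and ICOS signalling, 16 rows of 12 genes had a median log2 ratio of -0.01. GRAP2, an adaptor of the CD28 tail, appeared on both sides: its record XM_004373880.1 was higher by 2.39-fold, at 143 against 59.7, and its weaker record XM_004373881.1 was 2.02-fold lower, at 14.5 against 29.3, a ratio that fell inside 2-fold without either of 2 libraries (log2 ratios of -0.80 and -0.72). PRKCQ, the protein kinase C of the T cell synapse, was 2.29-fold higher because of 32.3 normalized counts in the library of size factor 0.372, and without it the log2 ratio changed sign from 1.19 to -1.04. PIK3CD was 2.37-fold lower, at 15.0 against 35.4 (log2 ratio -1.24, -0.91 without the library of size factor 0.620 and -2.10 without that of 0.372), and both NFATC3 records were lower, by 4.05-fold and 2.79-fold, at 4-library means of 2.77 and 2.63, the second with a log2 ratio of -2.10 in place of -1.48 without the library of size factor 0.372.

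Of the genes that accompany the maturation of antigen-presenting cells, 7 of 23 listed symbols had a row. CCR7, which guides mature dendritic cells to lymph nodes, had means of 969 over the 4 libraries and 928 over the 7 libraries, a log2 ratio of 0.06. CIITA, the master regulator of MHC class II genes, had a log2 ratio of -0.96, at 81.5 against 158, and IRF4 one of 0.91, at 324 against 172. IL23A, a subunit of the cytokine IL-23, was 15.8-fold higher in the 4-library mean. Its 4 libraries, by falling size factor, held 3.21, 8.76, 91.9 and 37.7 normalized counts, against 0 to 9.97 in the 7 libraries with a median of 1.31, so the groups overlapped at the low end, and without the library of 91.9 the log2 ratio was 2.88 in place of 3.98, and without the library of 9.97 it was 5.21. SOCS1, an inhibitor of cytokine signalling, was 2.10-fold higher, but without the library of size factor 0.372 its log2 ratio changed sign from 1.07 to -0.70. IL15 was 2.27-fold lower (log2 ratio -1.18, and -0.77 without that library).

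**Figure D4:**
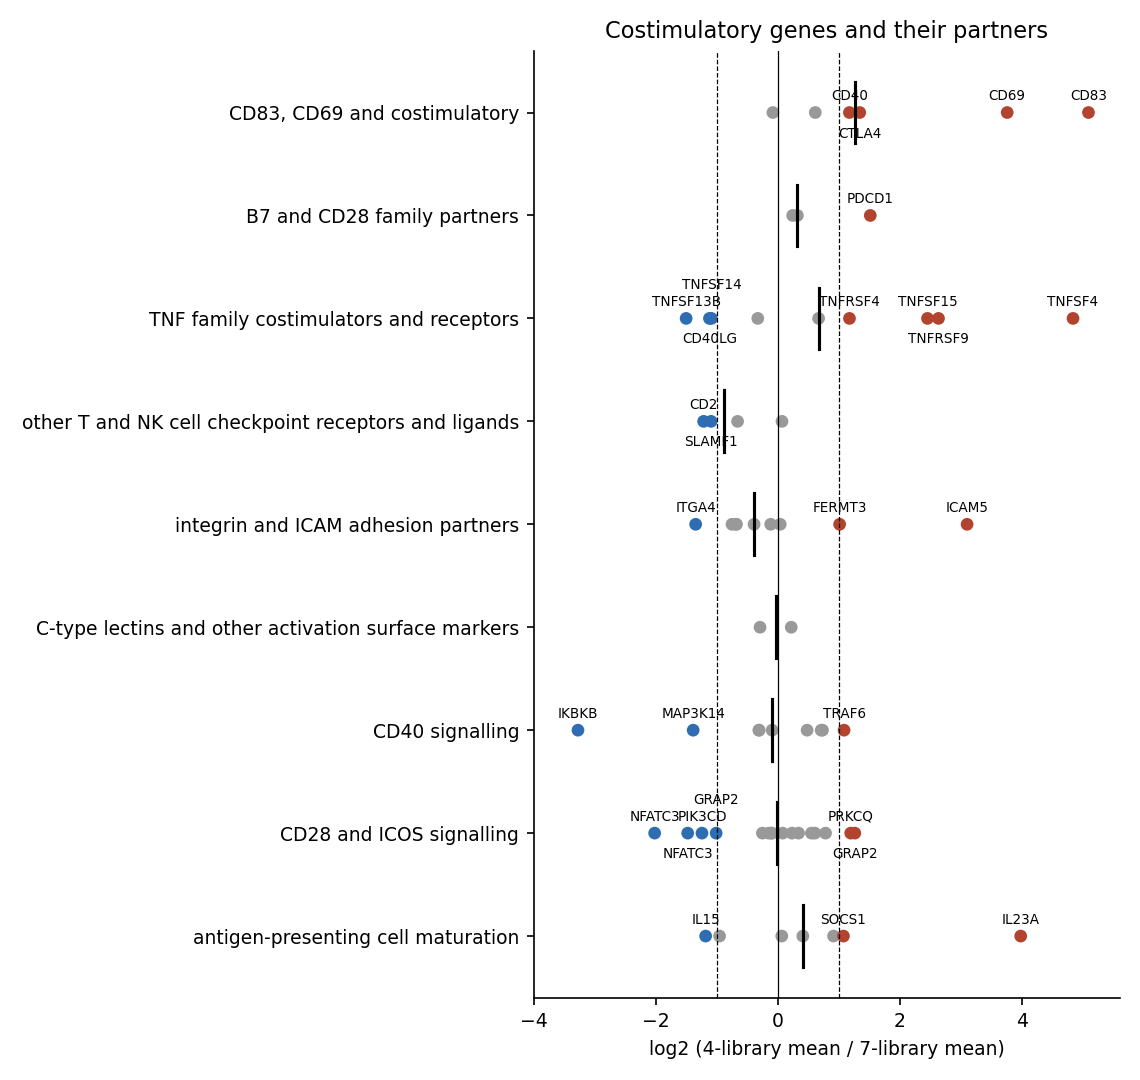
Log2 ratio of the means, 4 libraries over 7, for each row of the 6 genes and of 8 lists of partner genes, with a black bar at each list's median and dashed lines at 2-fold (red at least 2-fold higher, blue at least 2-fold lower in the 4-library mean, grey between). The 6 genes have a median of 1.26, while the medians of the partner lists lie between -0.88 and 0.67.

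The markers of the cell types in a buffy coat were present in both means, with no listed row at 0, although CD3D, CD3E, CD3G and CD14 had no entry in the gene table used and were not analysed here. In RNA of mixed cells, fewer cells of a type and less RNA per cell cannot be told apart. The counts below stand beside 23.9% of all rows at least 2-fold higher in the 4-library mean and 10.4% at least 2-fold lower. T cell markers had 7 rows of 4 genes, of which 1 (CD4, at 145 against 297) was 2-fold lower and 1 weak LEF1 record, with 2 reads against 1, was nominally higher (fold 2.48, 95% Poisson interval 0.445 to 98.0). The sum of the T cell means was 3837 in the 4-library and 3733 in the 7-library group, and IL7R made up most of it. B cell markers summed to 839 and 887, with CD22 2.09-fold lower, a ratio that fell inside 2-fold without any of 3 of the 4 libraries (log2 ratios of -0.98 to -0.83, and -1.70 without the fourth). Monocyte markers summed to 2139 and 2999, with 1 of 2 VCAN records at least 2-fold higher and CX3CR1 3.02-fold lower. Of 4 NK and cytotoxic rows, EOMES and FASLG were at least 2-fold lower, EOMES with 3 reads in the 4 libraries (ratio 0.237, 95% Poisson interval 0.0489 to 0.693, log2 ratio -3.29 in place of -2.08 without the library of size factor 0.372). Dendritic cell markers summed to 1837 and 1363. At least 2-fold higher in the 4-library mean were 3 of 9 rows, not far from the share of all rows. These were CLEC9A at 81.9 against 23.0, CADM1 at 129 against 50.6 and XCR1 at 18.2 against 8.56. XCR1 fell inside 2-fold without either of 2 libraries (log2 ratios of 0.69 and 0.86). In contrast 1 TCF4 record was 2.89-fold lower, with a log2 ratio of -2.18 in place of -1.53 without the library of size factor 0.620.

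Neutrophil, platelet and immediate early genes differed between the means by larger amounts. Their counts likewise stand beside 23.9% of all rows at least 2-fold higher in the 4-library mean and 10.4% at least 2-fold lower. Neutrophil markers summed to 2731 over the 4 libraries and 12585 over the 7 libraries, with 7 of 9 rows at least 2-fold lower, among them MMP9 (9.97-fold), CXCR2 (9.15-fold), CXCR1 (8.71-fold), S100A9 (log2 ratio -2.70) and S100A8 (5.14-fold). The other 2 rows were higher in the 4-library mean but inside 2-fold, FPR1 at 698 against 442 and MPO at 4.44 against 2.34. These neutrophil ratios carry the same doubt over which mean is red tide. Without the library of size factor 0.620 the log2 ratios of CXCR1 and CXCR2 were -4.43 and -4.26, in place of -3.12 and -3.19. MMP25, another of the 7, had a log2 ratio of -0.86 without the library of size factor 0.372, in place of -1.27. Platelet markers summed to 10525 and 3401, with TUBB1 4.49-fold, GP9 3.54-fold and ITGA2B 2.08-fold higher. Of GP9, 151.5 normalized counts were in the library of size factor 0.620, without which its log2 ratio was 1.01 in place of 1.82. GP1BA, the remaining platelet row, lay inside 2-fold at 72.1 against 41.1. Without the same library its log2 ratio was -0.17 in place of 0.81. Of 2 erythroid rows, ALAS2 was 2.78-fold lower. Of 11 rows of immediate early genes, transcription factors and regulators switched on within minutes of cell stimulation, 9 were at least 2-fold higher in the 4-library mean and none was lower. Their median log2 ratio was 2.59, with NR4A2 12.3-fold, ATF3 11.1-fold, JUN 10.6-fold, EGR1 7.84-fold, JUNB 4.50-fold and FOS 3.89-fold higher. Without the library of size factor 0.372 the log2 ratio of ATF3 was 2.77 in place of 3.47. CD83, at 34.0-fold, exceeded all 11 of these ratios, and CD69, at 13.5-fold, did as well. The part of neutrophils, platelets and immediate early genes in the values of CD83, CD69, CTLA4 and CD40 was not tested.

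**Figure D5:**
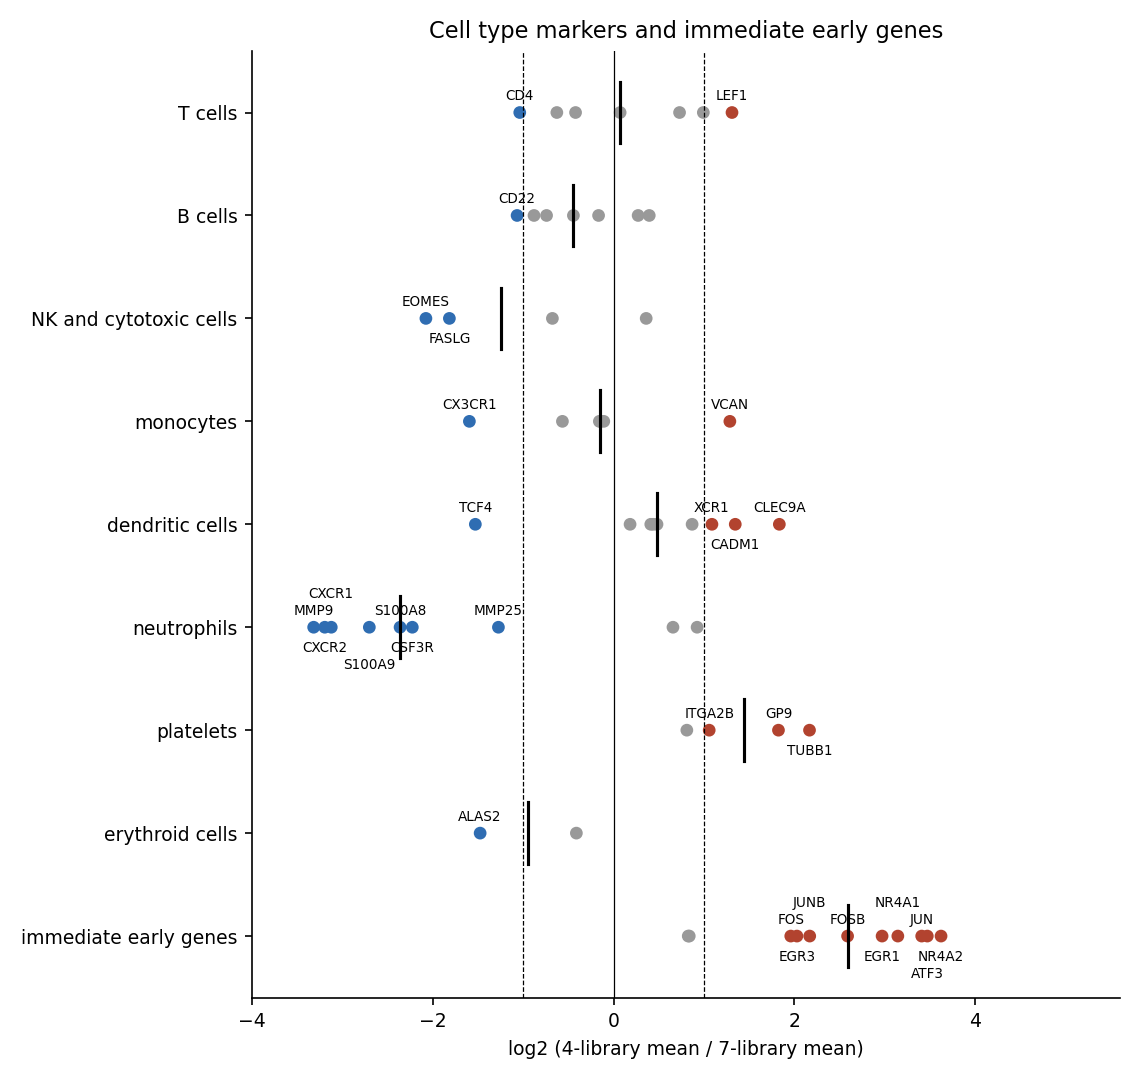
Log2 ratio of the means, 4 libraries over 7, for each row of 8 lists of cell type markers and of immediate early genes, drawn with the same colours, median bars and 2-fold lines as the plot of partner genes. Of 9 neutrophil rows 7 lie to the left and 2 to the right of 0, with a median of -2.36. Platelet rows lie to the right with a median of 1.44 and immediate early rows furthest to the right with a median of 2.59.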

How the data were processed

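Libraries were paired-end and made from RNA depleted of ribosomal and globin transcripts. Reads were trimmed with Cutadapt and mapped with Bowtie2 to TriManLat1.0. Duplicates were then discarded, only unique alignments were retained, and a count was made for each gene sequence by the authors. The annotation release was not given in the sources used here. In the deposited table the unit is a signal: an average of read counts that the authors scaled with the size factors of DESeq, for the 11 libraries together and for either group. Columns with the authors' own comparison (fold change, log2 fold change, p-value and adjusted p-value) were not used. Unused per-sample columns numbered 0.

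Here the table was read with Python 3.11.15 (numpy 2.4.6, pandas 2.3.3, scipy 1.17.1). The transcript record without its version gave a RefSeq symbol for 10080 rows (65.9%). A row was called at a 2-fold ratio of the means; no test was made. Each mean is a sum of whole reads with a fixed worth per library, read from the lowest means and refined by least squares. A single combination of reads, within 6e-10 below a mean of 10 and 6e-09 above, was found in 9632 of the 9634 rows whose 4-library mean was at most 80 and in 4454 of the 4505 whose 7-library mean was at most 6, after a test on simulated data. Size factors were 0.372 to 1.56 in the 4 libraries and 0.702 to 1.73 in the 7. Total reads per library cannot be had from means. Intervals and the limit of 3 reads behind a count of 0 cover counting error only.

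Named were all members with a row, and from each list every gene at least 2-fold apart where there were 6 or fewer in a direction. Otherwise the 4 with the largest ratio whose lower mean was at least 1 and the 2 with the highest mean were named. The genes and lists were chosen with earlier results of these data known. Alternatives concerned the fold, a pseudocount of 1, centring, low means, repeated symbols and single libraries; leaving out single libraries for genes other than the members was added after seeing the data. The promoter motif search that had been planned was not run, because no promoter sequences were at hand. Of the listed monocyte markers, 1 is not reported here and was left out of that list.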

Additional observations from a re-analysis of the deposited data

Results flagged for a closer look

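A single library lay far from the others of its group in 5 of the 14 groups of values screened. The cut-off used is passed by about 1 of 20 groups when values are normally distributed. Counts this low, many of them 0, are not, so that rate does not apply and 5 is not read as an excess. In TNFRSF4 the highest of the 4 libraries held 8.07 normalized counts (3 reads) and the next held 0. In the same gene the highest of the 7 libraries held 3.62 and the next 1.16. In TNFRSF9 the highest of the 7 libraries held 9.39 and the next 3.61, still below the lowest of the 4 libraries. In TNFSF15 the highest of the 4 libraries held 29.6 and the next 4.84. In TNFSF4 the highest of the 7 libraries held 3.61 and the next 0. The values of TNFRSF4 and TNFSF15 in the group of 4 came from the library of smallest size factor, 0.372, in which 1 read is worth most.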

How the results depend on the processing

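The count of 4 genes at least 2-fold higher in the 4-library mean was 2 at a fold of 4 (CD83 and CD69) and 5 at a fold of 1.5, where 33.8% passed. It stayed at 4 with a pseudocount of 1, with either centring and with an overall mean of at least 10. Under that filter 12.3% of rows were 2-fold higher and 9.59% lower. Without the filter, the share of all rows at least 4-fold higher was slightly below that 12.3%. The count was 4 or 5 with each of the 4 libraries left out where reads were recovered. The median log2 ratio of the 6 genes lay between 1.12 and 1.34 under these settings, from 1.26. Centring on all rows lowered each ratio by 0.14, and the median of rows with an overall mean of at least 10 was -0.01. The choice of 1 row per symbol did not move the median. For CD83, CD69, CTLA4 and CD40 no library could be left out, so the dependence of their ratios on a single animal is unknown. No paired analysis was possible because single samples have no column in the table, and recovered libraries carry no replicate number.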

Other observations

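Several genes had more than 1 transcript record, and their records differed. For VCAN, record XM_004388838.1 had means of 61.6 over the 4 libraries and 25.3 over the 7 libraries, and record XM_004388839.1 had means of 205 and 228. For TCF4, record XM_004379247.1 had means of 98.9 and 54.2, and record XM_004379254.1 had means of 5.39 and 15.6. For LEF1, the strongest record XM_004380226.1 had means of 207 and 125.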
